A study of Homo sapiens with 12 samples.

Results

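Of 10 classical progestin and glucocorticoid response genes, 9 were measured by a row of their own on arrays of U87 cells, a human glioblastoma line, and none of the 9 passed the threshold of the methods after 72 h with 3α-THP, P4 or F. The genes were TSC22D3, DUSP1, SGK1, PER1, KLF9, KLF4, ZBTB16, STAT5A and HSD11B2. FKBP5, the remaining gene, had no row that was annotated to it alone. The members were taken by name, and a row was used only where the listed gene was its single annotated symbol. Each of the 9 genes had exactly 1 such row among the 21214 rows that carry a gene name. The largest difference of any of them against V was -0.28 on the log2 scale, for TSC22D3 with 3α-THP.

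Total RNA was hybridised to 12 Affymetrix Human Gene 1.0 ST arrays, 3 for each treatment, and the labels call the 3 arrays of a treatment biological replicates. The treatments were 3α-THP (allopregnanolone, 10 nM), P4 (progesterone, 10 nM), F (finasteride, 100 nM) and V, the DMSO vehicle. 3α-THP is a metabolite that cells make from P4 by reduction at the 5α position and then at the 3α position, and F inhibits the 5α-reductases of the first step. The DMSO of V is given as 0.1% in one field of the labels and as 10% in another. All cells spent the day before treatment in medium without phenol red and with charcoal-stripped serum, which lowers the steroids carried in by serum. All arrays come from a single cell line, and the 3 arrays of V are shared by the 3 comparisons with V.

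Progesterone and cortisol act through related nuclear receptors, PR and GR, which leave their chaperones when hormone binds. Both bind the same kind of DNA element in the nucleus, a palindrome of AGAACA and TGTTCT with a gap of 3 bases. The genes described here are textbook targets of GR, of PR or of both in other cells. Several of them limit the hormone's own signal or inflammatory signalling. 3α-THP is known mainly as a modulator of GABA-A receptors and of membrane progesterone receptors, not as a ligand of PR.

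The labelled cell type was set against marker genes. VIM, CD44 and TNC, mesenchymal and glioma genes, lay above the median row, with means of 12.5, 11.9 and 9.95 over the 12 arrays. NES, GFAP, S100B and SOX2, genes of neural progenitors and astrocytes, lay below it, between 3.77 and 6.17. The markers of leukocytes (PTPRC, 2.95), endothelium (PECAM1, 4.07), epithelium (EPCAM, 3.64) and neurons (RBFOX3, 5.98) lay below it as well, as did CDKN2A (5.05), which is deleted in U87. The median row stood at 6.37. Array medians ran from 6.35 to 6.40, and no array was left out. For the receptors, NR3C1 (GR) averaged 9.49 with 3α-THP, 9.52 with P4, 9.59 with F and 9.54 with V. PGR (PR) averaged 3.96 with 3α-THP, 4.0 with P4, 3.95 with F and 3.96 with V. Its means lay below the median row and below that of CDKN2A (5.05), the gene deleted in U87. These values and those below are log2 array values, so a difference of 1 is a doubling. NR3C1 and PGR were added to the text after their values were seen. The number of arrays limits the precision.

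Letters of the response element were searched in RefSeq promoter windows, which run from 250 bases before to 50 bases after a gene's start in GRCh38.p14. Windows were listed for 8 of the 10 genes, 16 in all. No window of a member held the full palindrome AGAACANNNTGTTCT, and 1 of 35116 windows of all genes did (0.00285%). A single arm of the palindrome, AGAACA or TGTTCT on either strand, was present in 4 of the 16 windows (25%), against 14.8% of all windows. STAT5A was the only member with an arm upstream of a start, 97 bases before it, and a pair of its windows overlap and hold the same letters. The others lay at or just after a start of FKBP5 and of SGK1. The DUSP1 window held TGACGTCA, the cyclic AMP response element bound by CREB1, 125 bases before the start, an element present in 1.85% of all windows and looked for after the values were seen. Both upstream stretches are shown with the motif in capitals, since they place letters of the hormone pathway and of the cyclic AMP pathway beside genes described below. The STAT5A stretch is chr17:42287316-42287373 on the plus strand, and the DUSP1 stretch is chr5:172771287-172771346 on the minus strand.
STAT5A: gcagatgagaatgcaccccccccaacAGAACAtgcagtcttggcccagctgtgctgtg
DUSP1: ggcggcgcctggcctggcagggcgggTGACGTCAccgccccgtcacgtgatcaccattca
A match is a description of letters only, and many known elements of these genes lie outside such short windows.

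The comparison of each steroid with V asked which genes the treatment changed. With 3α-THP, 0 of the 9 members passed the threshold, a change of more than 1.5-fold together with an unadjusted p below 0.05 in limma, against 144 of all 21214 rows (0.679%). With P4 it was 0 of 9, against 5 rows (0.0236%), and with F 0 of 9, against 84 rows (0.396%). In the comparison of 3α-THP with P4, both at 10 nM, it was 0 of 9 against 53 rows (0.25%). Shares this small amount to less than 1 gene in 9, so counts of 0 do not set the members apart from the other rows.

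The finer counts gave the same picture. By unadjusted p under 0.05 in limma, 0 of 9 members differed with 3α-THP (7.34% of rows), 0 with P4 (1.82%), 0 with F (4.69%) and 1, HSD11B2, between 3α-THP and P4 (3.96%). After Benjamini-Hochberg adjustment over all tested rows the counts were 0 of 9 in every comparison, against 0.00471% of rows with 3α-THP, 0% with P4, 0.00471% with F and 0% between 3α-THP and P4. The 3 arrays of one treatment lay wholly apart from those of the other for 0 of 9 members in each comparison, although 11.3% of rows did so for 3α-THP against V, 5.44% for P4 against V, 9.11% for F against V and 8.22% for 3α-THP against P4. In limma's moderated F test over the 4 treatments no member had an adjusted p under 0.05 (0.00471% of rows did) or an unadjusted one (3.81% of rows). HSD11B2 had the lowest unadjusted p of the F test among the members, and every adjusted p was 1.

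The members leaned slightly to lower values in the treated cells, as did the rows in general. Their median log2 fold change against V was -0.01 with 3α-THP (6 of 9 negative), -0.07 with P4 (8 of 9 negative) and -0.06 with F (7 of 9 negative). The medians over all tested rows were -0.03, -0.01 and -0.02, with 41.1%, 43.9% and 41.8% of rows positive. Between 3α-THP and P4 the median of the members was 0.03 (6 of 9 positive), against -0.01 for all rows. These counts are descriptions, and the 3 comparisons with V share the V arrays.

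**Figure D1:**
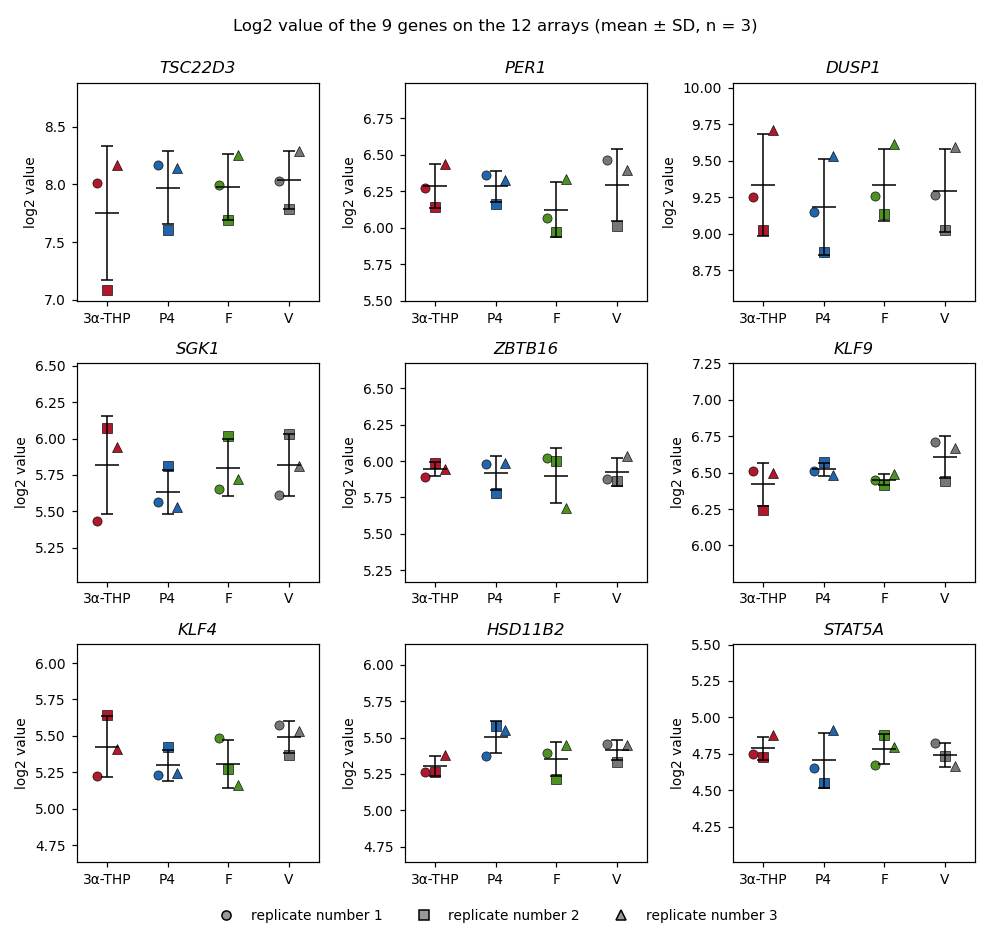
Log2 array values (y axis) of the 9 genes on the 12 arrays, by treatment (x axis, 3 arrays each), with a symbol for each replicate number and the mean ± SD as a bar; the y axis spans at least 1.5 log2 units in every panel. The 4 treatments overlap in every panel, and in TSC22D3 and DUSP1 the 4 squares (replicate number 2) are the lowest symbols of their treatments.

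TSC22D3, DUSP1 and SGK1 act on signalling. TSC22D3 (GILZ) is a glucocorticoid-induced leucine zipper protein that restrains NF-κB and AP-1. It gave 8.01, 7.09 and 8.17 on the arrays of replicate numbers 1, 2 and 3 with 3α-THP, 8.17, 7.61 and 8.14 with P4, 7.99, 7.69 and 8.26 with F and 8.03, 7.79 and 8.29 with V. The lowest value by far was the number 2 array of 3α-THP, and number 2 was the lowest array of every treatment. The log2 fold change was -0.28 ± 0.26 with 3α-THP (SE, limma, n = 3 each, adjusted p = 0.883), -0.07 ± 0.26 with P4 and -0.06 ± 0.26 with F. Without the number 2 array of 3α-THP, the difference between 3α-THP and V was 0.05, of opposite sign. The 3 differences within a number were -0.02, -0.70 and -0.12. With the replicate number as a fixed block, the unadjusted p passed below 0.05 and the adjusted p was 0.331, but with the number as a random block the unadjusted p stayed above 0.05 (adjusted p = 0.605). Against P4, TSC22D3 was at -0.22 ± 0.26 with 3α-THP (limma, adjusted p = 0.999).

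DUSP1 (MKP-1), a phosphatase that switches off MAP kinases, gave 9.25, 9.03 and 9.71 with 3α-THP, 9.15, 8.88 and 9.53 with P4, 9.26, 9.13 and 9.61 with F and 9.26, 9.03 and 9.60 with V. Within each treatment the order was the same, with number 3 highest and number 2 lowest. The log2 fold changes against V were 0.04 ± 0.21 with 3α-THP, -0.11 ± 0.21 with P4 and 0.04 ± 0.21 with F (SE, limma, adjusted p = 0.989, 1 and 0.999). DUSP1 was lower with P4 than with V in 3 of 3 pairs of the same number, by 0.11, 0.15 and 0.06. It was higher with 3α-THP than with P4 in 3 of 3 pairs, by 0.10, 0.15 and 0.18, which gave 0.15 ± 0.21 in the unpaired fit (limma, adjusted p = 0.999) and an adjusted p of 0.578 with a fixed block. The block took the SE to 0.07.

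SGK1, a kinase induced by glucocorticoids and mineralocorticoids that raises sodium transport, gave 5.43, 6.07 and 5.95 with 3α-THP, 5.56, 5.81 and 5.53 with P4, 5.65, 6.02 and 5.72 with F and 5.61, 6.03 and 5.81 with V. Here number 2 was the highest array of every treatment, opposite to TSC22D3 and DUSP1. The log2 fold changes against V were -0.00 ± 0.17 with 3α-THP, -0.18 ± 0.17 with P4 (lower in 3 of 3 pairs, limma, adjusted p = 1) and -0.02 ± 0.17 with F. The difference between P4 and V was -0.08 without the number 2 array of V and -0.29 without the number 1 array of V. 3α-THP minus P4 was 0.18 ± 0.17 (limma, adjusted p = 0.999), and 0.37 without the number 1 array of 3α-THP (adjusted p = 0.622).

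PER1, KLF9, KLF4, ZBTB16 and STAT5A encode regulators of transcription. PER1, a repressor of the circadian clock, gave 6.28, 6.14 and 6.44 with 3α-THP, 6.36, 6.16 and 6.33 with P4, 6.06, 5.97 and 6.33 with F and 6.47, 6.01 and 6.40 with V. The means of 3α-THP and P4 differed from that of V by 0.01 or less. With F the log2 fold change was -0.17 ± 0.13 (limma, adjusted p = 0.999), lower in 3 of 3 pairs, of which number 1 gave -0.40 and the others -0.04 and -0.06. Without the number 2 array of V it was -0.31 (limma, adjusted p = 0.678).

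KLF9, a zinc-finger factor induced by glucocorticoids in many cells that also works with PR in mouse uterus, had the smallest unadjusted p of the members against V. It gave 6.51, 6.25 and 6.50 with 3α-THP, 6.51, 6.58 and 6.49 with P4, 6.45, 6.42 and 6.49 with F and 6.71, 6.45 and 6.67 with V. The number 1 and number 3 arrays of V lay above all arrays of the 3 steroids, while the number 2 array of V lay among them. The log2 fold changes were -0.19 ± 0.10 with 3α-THP (limma, adjusted p = 0.719), -0.09 ± 0.10 with P4 (adjusted p = 1) and -0.16 ± 0.10 with F (adjusted p = 0.999). KLF9 was lower with 3α-THP than with V by 0.20, 0.20 and 0.17 in the 3 pairs, and lower with F in 3 of 3 pairs. With a fixed block, 3α-THP minus V had an unadjusted p below 0.05 and an adjusted p of 0.356, and with a random block likewise, with an adjusted p of 0.412. Without the number 2 array of V it was -0.27 (limma, adjusted p = 0.476), and without the number 2 array of 3α-THP it was -0.10. Of the alternatives described below, 5 gave an unadjusted p below 0.05 for 3α-THP against V and 3 for F against V (limma).

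KLF4, a related zinc-finger factor known in stem cells and as a glucocorticoid target in skin, gave 5.22, 5.64 and 5.41 with 3α-THP, 5.23, 5.42 and 5.25 with P4, 5.48, 5.27 and 5.16 with F and 5.58, 5.37 and 5.54 with V. The mean of V was the highest of the 4, but single arrays of each steroid lay among those of V. The log2 fold changes were -0.07 ± 0.12 with 3α-THP, -0.20 ± 0.12 with P4 (limma, adjusted p = 1) and -0.19 ± 0.12 with F (adjusted p = 0.999). KLF4 was lower with F in 3 of 3 pairs and lower with P4 in 2 of 3. Without the arrays of number 2 the differences from V were -0.24 with 3α-THP (adjusted p = 0.745) and -0.32 with P4 (limma, unadjusted p below 0.05, adjusted p = 1).

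ZBTB16 (PLZF), a zinc-finger repressor that both glucocorticoids and progestins induce strongly in endometrial stroma, varied least between treatments. It gave 5.89, 5.99 and 5.95 with 3α-THP, 5.98, 5.78 and 5.99 with P4, 6.02, 6.0 and 5.68 with F and 5.88, 5.86 and 6.04 with V. The highest and the lowest treatment means were 0.04 apart, and the log2 fold changes against V were 0.02, -0.01 and -0.02, each ± 0.10. STAT5A, a signal transducer of prolactin and cytokines that PR induces in breast cancer cells, gave 4.75, 4.73 and 4.88 with 3α-THP, 4.65, 4.55 and 4.91 with P4, 4.67, 4.88 and 4.80 with F and 4.83, 4.73 and 4.66 with V. Its log2 fold changes were 0.05, -0.04 and 0.04, each ± 0.10, and the treatments overlapped throughout.

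HSD11B2 and FKBP5 act on the hormone and its receptor. HSD11B2, which inactivates cortisol to cortisone and is induced by progesterone in endometrium, gave 5.26, 5.26 and 5.38 with 3α-THP, 5.38, 5.58 and 5.55 with P4, 5.39, 5.22 and 5.45 with F and 5.46, 5.33 and 5.45 with V. Its row ran from 5.22 to 5.58, which reached into the range of CDKN2A, a gene deleted in U87 (4.79 to 5.39). HSD11B2 had the highest mean with P4 and the lowest with 3α-THP. 3α-THP minus P4 was -0.20 ± 0.09 (limma, adjusted p = 0.999), the one difference of a member with an unadjusted p below 0.05, and it was lower with 3α-THP in 3 of 3 pairs, by 0.11, 0.32 and 0.17. That unadjusted p was below 0.05 under 13 of the alternatives described below, and the log2 fold change stayed negative, from -0.264 to -0.141. With the replicate number as a fixed block it was below 0.05 (limma, adjusted p = 0.506), and with a random block likewise (adjusted p = 0.667). The unadjusted p was above 0.05 with only 3α-THP and P4 in the fit and with array weights (log2 fold change -0.17). It was also above 0.05 without the arrays of number 2 (-0.14) and without the number 2 array of P4 (-0.16), among others. The number 1 array of P4 (5.38) did not lie above the number 3 array of 3α-THP (5.38), so the groups overlapped slightly. Against V the log2 fold changes were -0.11 ± 0.09 with 3α-THP (lower in 3 of 3 pairs), 0.09 ± 0.09 with P4 and -0.06 ± 0.09 with F (lower in 3 of 3 pairs).

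FKBP5 (FKBP51), a co-chaperone that lowers GR's affinity for hormone and is itself induced by GR, could be read only through shared rows. One row is annotated to FKBP5 and LOC285847, a non-coding gene at the FKBP5 locus, and it gave 5.04, 5.37 and 5.01 with 3α-THP, 4.85, 5.13 and 4.91 with P4, 5.09, 5.28 and 4.99 with F and 5.06, 5.15 and 5.09 with V. Its log2 fold changes against V were 0.05 ± 0.12 with 3α-THP, -0.14 ± 0.12 with P4 and 0.02 ± 0.12 with F. 3α-THP minus P4 was 0.18 ± 0.12 (limma, adjusted p = 0.999), higher in 3 of 3 pairs, with an adjusted p of 0.515 under a fixed block. The other row also names TMPRSS2, averaged 4.30 over the 12 arrays and differed from V by at most 0.06 in size. Neither row was counted among the members.

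The order of the treatments differed from gene to gene, and no order was shared by all 9. For every member each neighbour in the order of the 4 means overlapped the next in its single arrays. V was the highest of the 4 means for TSC22D3, PER1, SGK1, KLF9 and KLF4. 3α-THP was the highest for ZBTB16 and STAT5A, P4 for HSD11B2 and F for DUSP1. The distance from the highest to the lowest mean ran from 0.04 (ZBTB16) to 0.28 (TSC22D3).

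The intervals of the differences bound the change in the array value of each row. Only 3 of the 9 members (TSC22D3, DUSP1 and KLF9) lay above the median row, and the row of CDKN2A, a gene deleted in U87, still read 4.79 to 5.39. For the 6 dimmer rows the change in the transcript may exceed these bounds. Among them, the rows of HSD11B2 (5.22 to 5.58), KLF4 (5.16 to 5.64) and STAT5A (4.55 to 4.91) reached into the range of CDKN2A. The 95% interval of the fold change lay within 1.5-fold in either direction for 8 of 9 members with 3α-THP, 8 of 9 with P4 and 8 of 9 with F against V. TSC22D3 was the exception each time, with a fold of 0.823 (0.561 to 1.207) with 3α-THP, 0.955 (0.651 to 1.402) with P4 and 0.962 (0.656 to 1.411) with F. Between 3α-THP and P4, which differ by the 5α and 3α reductions, 7 of 9 intervals lay within it, the exceptions being TSC22D3 (0.587 to 1.264) and DUSP1 (0.809 to 1.513). These are 9 comparisons of a pair at a matched dose and time, all with a limma adjusted p of 0.999 over the tested rows. F was given at 100 nM, so no test was made between F and either of the other steroids alone, and its place in the order of means and in the F test is at that dose. With the replicate number as a fixed block, all 9 intervals lay within 1.5-fold in each of the 4 comparisons, with outer bounds of 0.688 and 1.307.

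**Figure D2:**
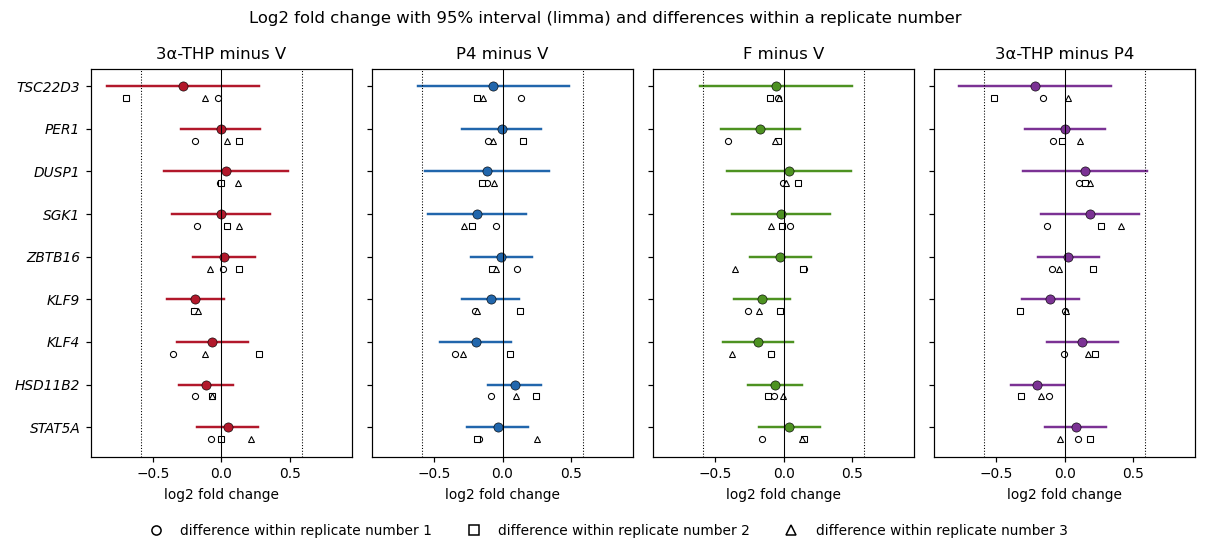
Log2 fold change (x axis) of the 9 genes (rows) in 4 comparisons, with limma's 95% interval as a line, the differences within a replicate number as open symbols and dotted lines at a fold of 1.5. All 36 filled points lie between the dotted lines, and the widest intervals are those of TSC22D3 and DUSP1.

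Replicate number held more of the variance of several members than treatment did. Of the variance of DUSP1 over the 12 arrays, 92.5% lay between replicate numbers and 5.5% between treatments. The shares were 75.2% and 10.6% for TSC22D3, 68.9% and 13.8% for SGK1 and 61.2% and 19.3% for PER1, against medians of 28.7% and 20.7% over all tested rows. In TSC22D3 the 4 arrays of number 2 lay between 7.09 and 7.79, below the other 8 (7.99 to 8.29). In DUSP1 they lay between 8.88 and 9.13, below the other 8 (9.15 to 9.71). PER1 had its lowest mean in number 2 (6.07, against 6.29 in number 1 and 6.38 in number 3), and SGK1 its highest (5.98, against 5.57 and 5.75). So 3 of these 4 genes were low and 1 was high in the same replicate.

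The other 5 members had smaller shares by replicate number. KLF9, HSD11B2 and KLF4 had more of their variance between treatments (40.6%, 48.2% and 30%) than between numbers (24.6%, 18.7% and 5.7%). In KLF4 (64.3%), STAT5A (74%) and ZBTB16 (95.3%) most of the variance lay in neither, and in STAT5A (16% and 10%) and ZBTB16 (2.5% and 2.2%) the share by number was again the larger of the pair. The pooled SD within a treatment was 0.38 for TSC22D3 and 0.31 for DUSP1, larger than that of 97.8% and 95.6% of rows, and 0.10 for HSD11B2, larger than that of 19.1%. The labels do not say what a replicate number marks beyond a biological replicate.

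**Figure D3:**
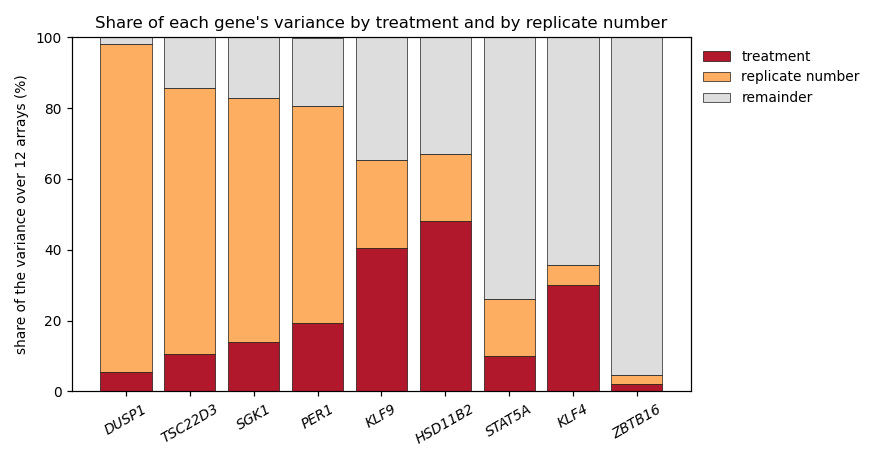
Share of each gene's variance over the 12 arrays (y axis, percent) by treatment, by replicate number and in the remainder, for the 9 genes (x axis). DUSP1, TSC22D3, SGK1 and PER1 each have over 60% by replicate number, and HSD11B2 has the largest share by treatment (48.2%).

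Taking the arrays of the same number as pairs changed the count of members with a small p in 1 comparison. With 3α-THP, 2 members, TSC22D3 and KLF9, had an unadjusted p under 0.05 in the limma fit with the number as a fixed block (13.4% of all rows had one), against 0 members without the block (7.34% of rows). With the number as a random block only KLF9 had one. Members lower than V in all 3 pairs were TSC22D3, KLF9 and HSD11B2 with 3α-THP (23.1% of rows were), DUSP1 and SGK1 with P4 (12.9% of rows) and TSC22D3, PER1, KLF9, KLF4 and HSD11B2 with F (20.2% of rows). No member was higher than V in all 3 pairs of any comparison with V, against 12.4%, 7.8% and 12.7% of rows. The lowest adjusted p of a member in the fixed-block fit was 0.331, and none passed a fold of 1.5.

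Related genes were read through 5 lists from general knowledge, with 138 of 150 genes measured by a row of their own. The lists hold 46 measured targets that glucocorticoids induce, 32 that progestins induce, 27 that glucocorticoids repress, 20 receptors, chaperones and coregulators, and 20 paralogs of the members. None of the 138 passed the threshold upward or downward in any of the 4 comparisons. In limma, 7 had an unadjusted p under 0.05 with 3α-THP, 0 with P4, 4 with F and 5 between 3α-THP and P4, where 7.34%, 1.82%, 4.69% and 3.96% of all rows did, and none had an adjusted p under 0.05. With the replicate number as a fixed block the counts were 13, 1, 7 and 11 of 138, against 13.4%, 3.8%, 8.54% and 9% of rows, again with no adjusted p under 0.05 (lowest 0.105). None of these counts exceeds the share of all rows. The medians over the 138 genes were -0.06 with 3α-THP, -0.02 with P4 and -0.05 with F.

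Among glucocorticoid-induced targets, 12 of 46 were higher with 3α-THP than with V, where 41.1% of all rows were, and the median log2 fold change was -0.07, against -0.03 for all rows. TGM2, a transglutaminase that crosslinks proteins, had the largest difference, with 7.55, 7.51 and 7.58 with 3α-THP, 7.81, 7.99 and 7.78 with P4, 7.66, 7.75 and 7.81 with F and 7.79, 7.95 and 7.89 with V. Its 3 arrays of 3α-THP lay below all 9 others. The arrays did not overlap for 11.3% of all rows between 3α-THP and V, and for 8.22% between 3α-THP and P4. The log2 fold change of TGM2 was -0.33 ± 0.08 (limma, adjusted p = 0.406), and against P4 it was -0.31 ± 0.08. CEBPD (-0.26) and DDIT4 (-0.30), named after their values were seen, were the other genes of the list with an unadjusted p under 0.05, both lower with 3α-THP. With P4 the largest difference was that of ACSL1 (-0.18), which activates fatty acids, and with F that of KLF6 (-0.22), a zinc-finger factor. The medians were -0.02 with P4 and -0.05 with F.

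Among progestin-induced targets the medians were -0.04 with 3α-THP, -0.01 with P4 and -0.04 with F. Of the 32, 10 were higher than V with 3α-THP, 14 with P4 and 12 with F, where 41.1%, 43.9% and 41.8% of all rows were. SCGB1D2, a secretoglobin, had the largest difference with 3α-THP, at 5.39, 5.26 and 5.36, against 5.06, 5.01 and 5.17 with V, 0.26 ± 0.10 higher (limma, adjusted p = 0.614). PRLR, the prolactin receptor, had the largest with P4 (0.16), and RANBP1, a Ran-binding protein, the largest with F (-0.25). The rows of SCGB1D2 and PRLR lay at about or below the level of CDKN2A, a gene deleted in U87 (4.79 to 5.39).

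Among glucocorticoid-repressed targets, 1 of 27 was higher with F than with V, with a median of -0.09, against 41.8% of all rows being higher. The list held 8 higher of 27 with 3α-THP (median -0.06) and 6 of 27 with P4 (median -0.04), where 41.1% and 43.9% of all rows were. The glucocorticoid-induced targets leaned the same way, with 14 of 46 higher with F and 16 of 46 with P4. CCL20, a chemokine, gave 4.46, 4.10 and 4.23 with 3α-THP and 4.64, 4.6 and 4.76 with V, which did not overlap (-0.40 ± 0.11, limma, adjusted p = 0.432). Of all rows, 11.3% did not overlap between 3α-THP and V. MMP3, a matrix protease, gave 4.09, 4.23 and 4.16 with F and 4.35, 4.35 and 4.64 with V (-0.29 ± 0.10, limma, adjusted p = 0.911). With P4 the largest difference was that of TNF (-0.34). The rows of these 3 genes lay below the median row, at or below the level of CDKN2A, a gene deleted in U87 (4.79 to 5.39).

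Among receptors, chaperones and coregulators, NRIP1, a corepressor of ligand-bound nuclear receptors that is itself hormone-induced, had the largest difference with both 3α-THP and F. It gave 7.70, 8.11 and 7.90 with 3α-THP, 7.45, 7.65 and 7.67 with P4, 7.81, 7.84 and 7.85 with F and 7.22, 7.82 and 7.34 with V. The number 2 array of V overlapped the steroid arrays, and the other 2 arrays of V lay below all of them. The log2 fold change was 0.44 ± 0.15 with 3α-THP (limma, adjusted p = 0.541) and 0.37 ± 0.15 with F (adjusted p = 0.935). NR3C2, the mineralocorticoid receptor, had the largest with P4 (-0.17). Among the paralogs the largest were KLF6 with 3α-THP (-0.17), the phosphatase gene DUSP4 with P4 (-0.14) and the zinc-finger gene ZBTB32 with F (-0.24, limma, adjusted p = 0.999).

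**Figure D4:**
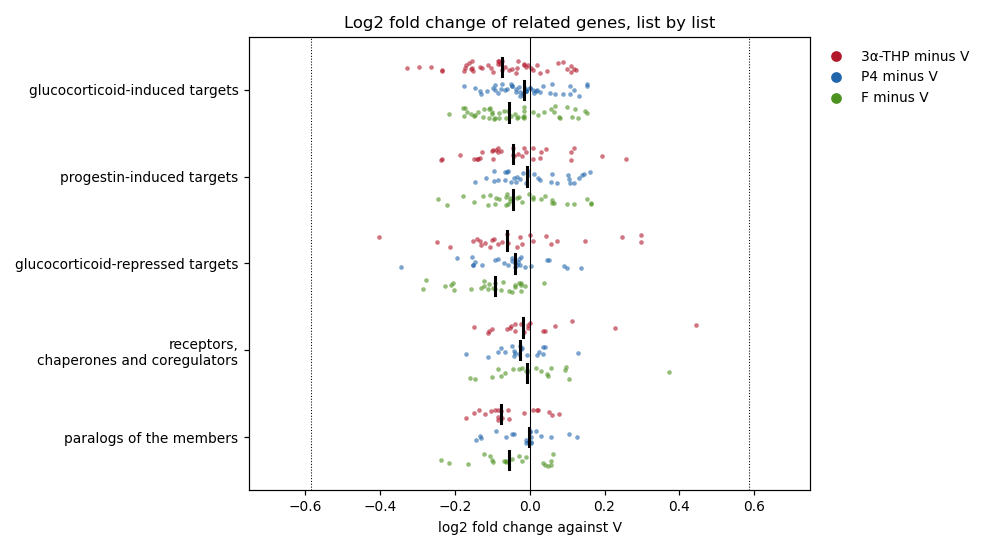
Log2 fold change against V (x axis) of each measured gene in 5 lists of related genes, for 3α-THP, P4 and F; each point is a gene, vertical bars are list medians and dotted lines mark a fold of 1.5. No gene lies beyond the dotted lines, and the genes farthest from 0 are NRIP1 (0.44) and CCL20 (-0.40), both with 3α-THP.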

How the data were processed

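The deposited table holds 1 log2 value per transcript cluster and array. The authors used Affymetrix Expression Console 1.4 per the labels, while their methods name another program with quantile normalization. They run from 1.25 to 14.1. Rows with a gene name in the platform annotation (21214 of 33297) were tested, since 12083 carry none. The threshold was a fold over 1.5 and an unadjusted p under 0.05, after the methods' unpaired design. limma 3.58.1 in R 4.3.3 fitted 1 mean per treatment over the 12 arrays (prior degrees of freedom 4.73), with Benjamini-Hochberg adjustment over tested rows. It was tested on simulated data that held no effect of the replicate number, so the unpaired fit was not checked under such an effect. Members and lists were chosen with earlier results of these data known. The text names all members and, in each list, genes past the threshold and the gene with the largest difference from V in each comparison. Where several rows named a gene, the brightest was used. Array deviations from treatment means tended to pair by replicate number. The 18 same-number pairs correlated at 0.13 to 0.63, and 36 others at -0.60 to 0.23. These ranges overlap, and they are not independent, since the deviations within a treatment cancel out by construction. Arrays of a treatment are biological replicates per the labels. Alternatives covered the block, normalization, dim rows, tests, thresholds and arrays left out. Promoter and gene coordinates are RefSeq's, GRCh38.p14.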

Additional observations from a re-analysis of the deposited data

How the results depend on the processing

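Under 25 alternatives, 12 of which left out 1 array, no member that was fitted passed the threshold in any comparison, none had a limma adjusted p under 0.327, and the largest difference of a member was 0.487 in size on the log2 scale. Quantile or cyclic loess normalization moved the median of all rows by at most 0.017. Many of the members' log2 fold changes are small beside their errors, but not all, as for HSD11B2 between 3α-THP and P4 (-0.20 ± 0.09). Of 876 values under an alternative, 26 had an unadjusted p under 0.05 (limma or the plain analysis of variance). HSD11B2 between 3α-THP and P4 held 13 of them. The opposite sign was taken by 53 of the 876, 7 of them where the size had been over 0.1. Many alternatives, such as the blocks, the plain analysis of variance and a left-out array of another treatment, leave the log2 fold change as it was. The share of sign changes therefore understates how far the signs depend on single arrays. Leaving out dim rows kept only TSC22D3, DUSP1 and KLF9, since the other 6 members lie below the median row. An average over several rows of a gene was not run, since each member has 1 row. With the replicate number as a block, fixed or random, no count past the threshold differed from 0 for members or lists, and the members whose unadjusted p passed below 0.05 under either block are named beside their results. The cause of the changes below was not tested.

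At a fold over 1.2, 5 listed genes passed with 3α-THP against V (CEBPD, TGM2, DDIT4, CCL20 and NRIP1), 2 with F against V (MMP3 and NRIP1) and 4 with 3α-THP against P4 (TGM2, MMP1, NR3C2 and NRIP1), where 0 had passed at 1.5. With 1 array left out, the count of listed genes past 1.5 ran from 0 to 1 for 3α-THP against V and for 3α-THP against P4. NRIP1 passed without the number 2 array of V (log2 fold change 0.62, adjusted p = 0.0881), and IL1A without the number 1 array of 3α-THP (0.60 against V and 0.72 against P4). These genes were named after their values were seen.

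With array weights, the opposite sign was taken by DUSP1 for F against V (-0.108), SGK1 for 3α-THP against V (0.037), STAT5A for P4 against V (0.008) and ZBTB16 for 3α-THP against V (-0.042). With cyclic loess it was taken by PER1 (0.013) and SGK1 (0.009) for 3α-THP against V. Without the 4 arrays of number 2 it was taken by KLF9 for 3α-THP against P4 (0.008), STAT5A for F against V (-0.011) and for P4 against V (0.039), and ZBTB16 for 3α-THP against P4 (-0.064), for 3α-THP against V (-0.036) and for P4 against V (0.028).

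With 1 array left out at a time, these log2 fold changes crossed 0. For 3α-THP against V they ran from -0.487 to 0.051 in TSC22D3, -0.156 to 0.188 in DUSP1, -0.129 to 0.189 in SGK1, -0.146 to 0.082 in PER1, -0.176 to 0.035 in KLF4, -0.014 to 0.074 in ZBTB16 and -0.001 to 0.088 in STAT5A. For P4 against V they ran from -0.19 to 0.117 in TSC22D3, -0.283 to 0.045 in DUSP1, -0.147 to 0.08 in PER1, -0.043 to 0.06 in ZBTB16 and -0.141 to 0.043 in STAT5A. For F against V they ran from -0.195 to 0.089 in TSC22D3, -0.101 to 0.189 in DUSP1, -0.131 to 0.086 in SGK1, -0.085 to 0.086 in ZBTB16, -0.007 to 0.098 in STAT5A and -0.109 to 0.005 in HSD11B2. For 3α-THP against P4 they ran from -0.421 to 0.117 in TSC22D3, -0.046 to 0.319 in DUSP1, -0.076 to 0.073 in PER1 and -0.041 to 0.061 in ZBTB16.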
